A study of Homo sapiens with 8 samples.

Results

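The genes of Polycomb repressive complex 2 (PRC2) were examined in D283-OMO medulloblastoma cells with and without induction of OMOMYC. They comprise 10 genes, chosen by name: EZH1, EZH2, EED, SUZ12, JARID2, RBBP4, RBBP7, PHF1, MTF2 and PHF19. Each symbol was found through its Ensembl identifier and matched 1 row of the 60668 gene rows in each library, and no measured value entered the choice.

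PRC2 is the enzyme complex that places methyl groups on lysine 27 of histone H3, a mark of silenced developmental genes. Its catalytic subunit is either EZH2, typical of dividing cells, or the paralog EZH1, which is also present in resting cells. EED binds the methyl mark and stimulates the enzyme, SUZ12 is the scaffold that holds the complex together, and RBBP4 or RBBP7 contacts histones. The Polycomb-like proteins PHF1, MTF2 and PHF19 join 1 form of the complex, whereas JARID2 and AEBP2 join another. In Group 3 medulloblastoma, a childhood tumor of the cerebellum, MYC is a frequent driver, and EZH2 and other chromatin regulators have been studied as candidate targets.

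D283 MED is an established MYC-amplified medulloblastoma line. D283-OMO cells, used in all libraries, carry a lentiviral doxycycline (DOX)-inducible, Flag-tagged OMOMYC transgene, a dominant-negative MYC mini-protein, and were selected with hygromycin as a stable population. The 4 untreated libraries carried the transgene without inducer, and the 4 DOX libraries came from cells treated with DOX for 72 h. Wild-type D283 MED cells given DOX were not analysed here, so an effect of DOX itself and that of OMOMYC cannot be told apart, and each group comes from the same transduced line. PolyA+ RNA was sequenced, and the total count per library ranged from 46592947 to 54020506 in untreated cells and from 38390696 to 49249167 in DOX-treated cells. Levels are given as CPM, the count of a gene relative to its library's total, on library sizes scaled by the TMM method of edgeR. The lineage markers CRX, NRL and NEUROD1 were expressed in untreated cells, but 5 of 10 medulloblastoma markers did not exceed 1 CPM in at least 4 libraries. PTPRC and CD3E, which mark blood cells, and PECAM1, which marks endothelium, did not exceed 6 counts in any library. Other markers of these cell types, LYZ for blood and CDH5, KDR and VWF for endothelium, did exceed 1 CPM in at least 4 libraries. LYZ, CDH5 and KDR did so through the DOX libraries, and the blood cell markers summed to at most 0.755 CPM in untreated ones. In bulk RNA, fewer cells of a kind and less RNA per cell cannot be told apart. MYC itself stood at 939 ± 75.6 CPM (SD, n = 4) in untreated and 1123 ± 56.8 CPM in DOX-treated cells, and reads of the MYC-derived transgene may be among these counts. The MYC targets CAD and NCL fell by 0.48 and 0.44 on the log2 scale, with edgeR adjusted p of 1.33e-06 and 1.23e-06.

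The PRC2 genes did not move as a block. PHF19 fell 5.30-fold and EZH2 fell 2.10-fold, RBBP7 and RBBP4 fell less, EED, EZH1 and MTF2 rose, and SUZ12, JARID2 and PHF1 did not pass the test. Each of the 10 genes exceeded the filter of more than 1 CPM in at least 4 libraries, with 623 to 16910 counts per gene and library. In edgeR's quasi-likelihood test, with p-values adjusted over 15222 genes by the Benjamini-Hochberg method, 7 of 10 genes had an adjusted p below 0.05, of which 3 were higher and 4 lower with DOX. The response of the transcriptome was broad. Among all genes tested, 76.6% passed the same threshold, 38.5% higher and 38.1% lower, so the share of PRC2 genes called lay near the background. At the stricter threshold of the study's methods, an adjusted p below 0.001 and an absolute log2 fold change (log2FC) above 2, PHF19 alone was called, against 7.12% of all genes. The values of 7 of 10 genes did not overlap between the groups, against 71.7% of all genes. The median log2FC was -0.08 over the 10 genes and 0.01 over all genes.

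**Figure D1:**
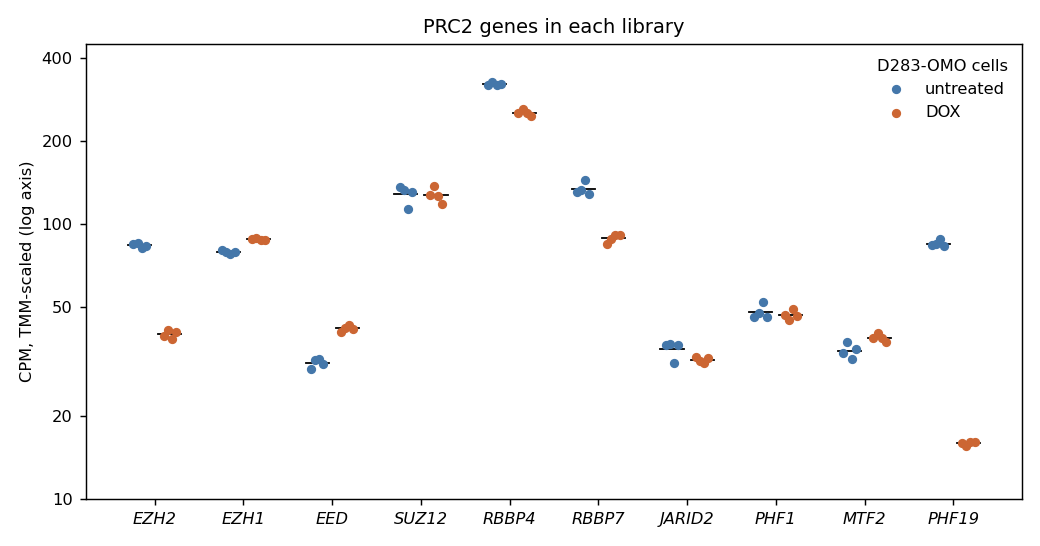
Level of the 10 PRC2 genes in each library, as TMM-scaled CPM on a log axis. Each point is 1 library, blue for untreated and orange for DOX-treated D283-OMO cells, and the short line is the group mean. PHF19 goes from 82.9 to 87.8 CPM in untreated cells to 15.5 to 16.2 CPM with DOX, while the points of SUZ12, JARID2 and PHF1 overlap between the groups.

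The promoters of PHF19 and EZH2, the genes with the largest falls, are shown beside those of EZH1, the paralog that rose, and SUZ12, the core subunit without a detected change. The RefSeq table on GRCh38.p14 holds 15 windows of 250 bases upstream of a transcription start for the 10 genes. The printed part of each leaves out bases that GENCODE 29 places in an exon. Capitals mark a match to the E2F words TTTCCCGC, TTTCGCGC, TTTGCCGC or TTTGGCGC on either strand, the core recognized by E2F factors, which drive genes of DNA replication. The sequences are written 5′ to 3′ on the strand of the gene.
PHF19 (chr9:120877329-120877438, minus strand): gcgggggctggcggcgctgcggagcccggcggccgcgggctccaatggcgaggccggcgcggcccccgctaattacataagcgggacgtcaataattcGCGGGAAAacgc
EZH2 (chr7:148884322-148884541, minus strand): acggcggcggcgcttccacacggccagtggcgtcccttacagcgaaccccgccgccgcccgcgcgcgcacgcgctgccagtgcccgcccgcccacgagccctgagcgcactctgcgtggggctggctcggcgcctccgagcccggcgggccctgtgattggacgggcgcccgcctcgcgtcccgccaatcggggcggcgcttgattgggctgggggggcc
EZH1 (chr17:42745050-42745290, minus strand): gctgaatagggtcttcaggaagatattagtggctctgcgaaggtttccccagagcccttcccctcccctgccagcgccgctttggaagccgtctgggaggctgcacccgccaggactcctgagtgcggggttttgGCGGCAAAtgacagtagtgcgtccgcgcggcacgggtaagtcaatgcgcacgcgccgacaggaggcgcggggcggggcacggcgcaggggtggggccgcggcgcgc
SUZ12 (chr17:31936757-31937006, plus strand): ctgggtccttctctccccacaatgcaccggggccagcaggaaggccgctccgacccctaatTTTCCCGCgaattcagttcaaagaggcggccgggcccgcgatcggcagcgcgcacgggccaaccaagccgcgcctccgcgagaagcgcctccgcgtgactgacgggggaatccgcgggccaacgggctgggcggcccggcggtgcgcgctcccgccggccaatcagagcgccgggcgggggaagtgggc

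An E2F word stood in 1 window each of PHF19, EZH1 and SUZ12, starting at position -152, -115 and -189 from the start site, and none was found in the windows of EZH2. Of these, PHF19 fell, EZH1 rose and SUZ12 had no detected change, and a part of E2F factors in the changes was not tested. Of all 35116 promoter windows of this length, 2.79% held such a word. The E-box CACGTG, the core bound by MYC with MAX, occurred in 1 of the 15 windows, at position -237 of RBBP4, and in 6.34% of all windows. The windows held 11 to 48 CpG dinucleotides each, against a median of 11 over all windows. These matches describe letters in a window and not binding.

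Of the catalytic subunits, EZH2 fell and EZH1 rose. EZH2 (ENSG00000106462.10, chr7:148807383-148884321, minus strand of GRCh38) stood at 84.3, 85.0, 81.8 and 83.1 CPM in the untreated libraries and at 39.2, 41.3, 38.2 and 40.4 CPM in the DOX libraries. All 4 DOX libraries lay below all 4 untreated ones, and libraries within a group differed little. The group means were 83.6 ± 1.42 CPM and 39.8 ± 1.34 CPM (SD, n = 4), and the log2FC was -1.07 (SE 0.04, edgeR adjusted p = 7.29e-10). Of all genes tested, 8.86% had a lower log2FC. EZH1 (ENSG00000108799.13, chr17:42700275-42745049, minus strand) stood at 80.3, 79.0, 77.9 and 79.2 CPM without DOX and at 88.0, 88.7, 87.3 and 87.1 CPM with DOX. The groups were again separate, although the rise was small, with a log2FC of 0.15 (SE 0.04) and an edgeR adjusted p of 0.00348. Without a filter on low counts the adjusted p was 0.0652.

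The balance of these paralogs was compared within each library, where the scaling between libraries cancels. The log2 ratio of EZH2 to EZH1 counts was 0.07, 0.11, 0.07 and 0.07 in the untreated libraries and -1.17, -1.10, -1.19 and -1.11 in the DOX libraries. The paralogs thus had nearly equal counts before DOX, and EZH1 counts exceeded EZH2 counts in each DOX library. The difference of -1.22 (SE 0.02) was a 2.33-fold lower ratio, with an exact two-sided permutation p of 0.0286, the smallest that 4 against 4 libraries allow. Across the 5 within-library ratios tested here the Benjamini-Hochberg adjusted value was 0.0286 for each. Each ratio stood at this smallest value, so the adjustment could not change it. How often ratios of other gene pairs reach it was not counted. Per kilobase of the principal transcript, EZH2 made up 58.8 ± 0.300% of the EZH2 and EZH1 level in untreated cells and 37.9 ± 0.711% with DOX (SD, n = 4), so that the more abundant paralog changed from EZH2 to EZH1. With the merged exons as length, the shares were 62.0% and 41.2%.

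**Figure D2:**
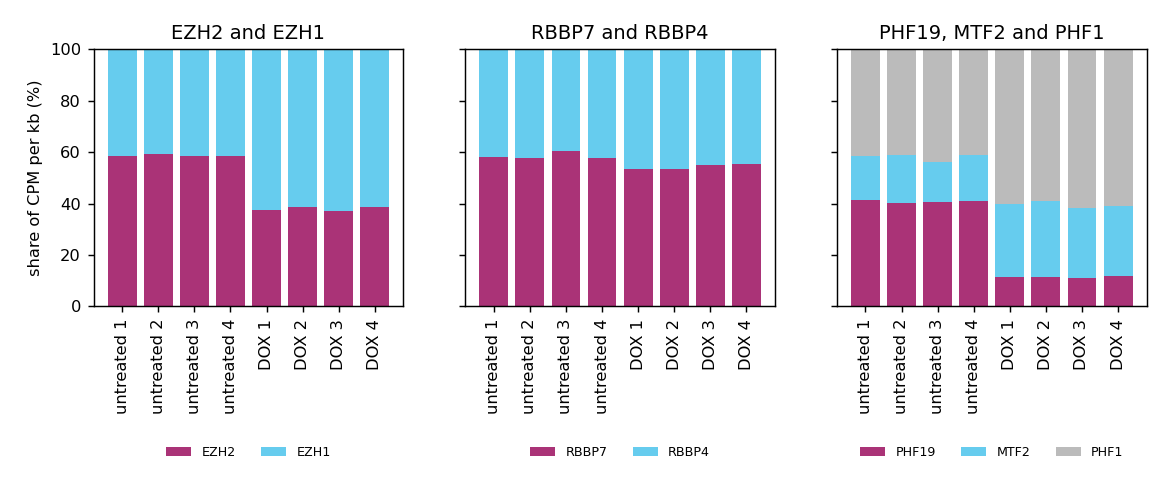
Share of each paralog in its family, in percent of CPM per kb of the principal transcript, for each of the 8 libraries (one stacked bar per library). The EZH2 share falls from 58.8% to 37.9% and the PHF19 share from 40.9% to 11.4% on average, while the RBBP7 share moves from 58.5% to 54.4%.

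Of the other core subunits, EED showed the largest rise of the 10 genes. EED (ENSG00000074266.21, chr11:86244544-86278813, plus strand) stood at 29.7, 31.9, 32.2 and 30.9 CPM in untreated cells and at 40.3, 42.0, 42.9 and 41.5 CPM in DOX-treated cells. The lowest DOX library exceeded the highest untreated one by more than the spread within either group. The means were 31.2 ± 1.09 and 41.7 ± 1.08 CPM (SD, n = 4), a 1.34-fold rise with a log2FC of 0.42 (SE 0.04) and an edgeR adjusted p of 4.21e-06.

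SUZ12 (ENSG00000178691.11, chr17:31937018-32001045, plus strand) stood at 135.7, 132.6, 112.7 and 129.9 CPM without DOX and at 127.6, 136.7, 125.8 and 117.6 CPM with DOX. These ranges overlapped almost completely. The log2FC was -0.01 (SE 0.07) with an edgeR adjusted p of 0.907, and its sign depended on the processing. Part of the reads of SUZ12 match its partial pseudogene SUZ12P1, and RSEM divides such reads, so that neither value is free of the other. The sum of both rows was whole within 0.03 counts in 3 of 8 libraries. SUZ12P1 (ENSG00000264538.6) fell, from 28.2 ± 1.43 CPM without to 22.8 ± 0.504 CPM with DOX (SD, n = 4), and its log2FC was -0.31 (SE 0.05) with an edgeR adjusted p of 0.000123. Their summed level was 156 ± 9.19 CPM in untreated and 150 ± 8.30 CPM in DOX-treated cells, a difference of -0.06 on the log2 scale with an exact permutation p of 0.314.

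The histone-binding subunits RBBP4 and RBBP7, which also serve in the NuRD and SIN3 deacetylase complexes, both fell. RBBP4 (ENSG00000162521.19, chr1:32651142-32686211, plus strand) had the highest CPM of the 10 genes, with 320, 327, 319 and 322 CPM in untreated and 252, 261, 253 and 247 CPM in DOX-treated libraries. RBBP7 (ENSG00000102054.17, chrX:16839283-16870414, minus strand) stood at 131, 132, 144 and 128 CPM without DOX and at 84.6, 88.0, 91.1 and 90.7 CPM with DOX. Neither gene had overlapping groups. The log2FC was -0.35 (SE 0.04) for RBBP4 and -0.59 (SE 0.05) for RBBP7, with edgeR adjusted p of 7.20e-06 and 5.02e-07. RBBP7 therefore fell more: its log2 ratio to RBBP4 went from -1.27 to -1.52, a difference of -0.25 (SE 0.05, exact permutation p = 0.0286, lower in 4 of 4 DOX libraries than in any untreated one). The order of these 2 genes by level depended on the length used, since RBBP7 made up 58.5% of their sum per kb of the principal transcript and 34.7% per kb of merged exons in untreated cells.

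Reads of both genes were divided with other loci. The rows of RBBP4, RBBP7 and SUZ12 had values that were not whole in all 8 libraries, whereas the other 7 genes had whole counts throughout. TXLNG, on the opposite strand, shares 179 exonic bases with RBBP7, and the sum of RBBP7 and TXLNG was whole within 0.03 counts in all 8 libraries, so RSEM divided reads between these genes of opposite strands. TXLNG had at least 9564 counts without and at most 6337 with DOX. RBBP4 shares 1706 exonic bases with SYNC, also on the opposite strand, which had at most 660 counts. The sum of RBBP4, SYNC and the RBBP4 pseudogenes was whole in all 8 libraries, against 4 with SYNC alone and 0 with the pseudogenes alone. RBBP4P1 and RBBP4P2 held 8 to 18 and 6 to 34 counts, and the other rows named as pseudogenes of EED, EZH2 or RBBP4 held at most 2. PHF1 shares 12 exonic bases with CUTA, and both rows were whole in all 8 libraries, so none of their reads was divided. How many reads were divided is not given by these sums, so the size of this effect on RBBP4 and RBBP7 was not measured.

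Among the Polycomb-like subunits, which bring the complex to CpG-rich DNA and read methylated lysine 36 of histone H3, PHF19 fell while MTF2 rose slightly. PHF19 (ENSG00000119403.15, chr9:120855652-120894896, minus strand) stood at 83.5, 84.1, 87.8 and 82.9 CPM in untreated cells and at 16.0, 15.5, 16.1 and 16.2 CPM in DOX-treated cells. The gap between the groups far exceeded the spread within them. The means were 84.6 ± 2.22 and 16.0 ± 0.294 CPM (SD, n = 4), a log2FC of -2.41 (SE 0.04) with an edgeR adjusted p of 1.25e-12. Ordered from the most negative log2FC, PHF19 was number 267 of 15222 genes, with 1.75% of genes below it. The patterns most similar to that of PHF19 over the 8 libraries were those of RGS6 (0.0478), CORO2B (0.0536) and E2F2 (0.0539), with the root mean square difference of centred log2 CPM in parentheses. Their log2FC was -2.48, -2.50 and -2.50. With little spread within the groups, this measure mainly picks genes of a like log2FC, and shared regulation was not tested.

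MTF2 (ENSG00000143033.18, chr1:93079235-93139081, plus strand) stood at 33.9, 37.1, 32.3 and 35.0 CPM without DOX and at 38.4, 40.0, 38.5 and 37.1 CPM with DOX. The highest untreated and the lowest DOX library nearly met. The log2FC was 0.15 (SE 0.05) with an edgeR adjusted p of 0.0164, and without a filter on low counts the adjusted p was 0.0828. PHF1 (ENSG00000112511.17, chr6:33410399-33416453, plus strand) stood at 46.0, 47.2, 51.9 and 45.9 CPM without DOX and at 46.4, 44.6, 49.1 and 46.3 CPM with DOX. The groups overlapped, and the log2FC of -0.03 (SE 0.05, edgeR adjusted p = 0.564) did not pass the test. Within libraries, the log2 ratio of PHF19 to MTF2 went from 1.29 to -1.27, a 5.90-fold lower ratio, and that of PHF19 to PHF1 from 0.83 to -1.54, a 5.18-fold lower ratio (exact permutation p = 0.0286 each). In untreated cells PHF19 and PHF1 had near-equal levels per kb, with shares of 40.9 ± 0.387% and 41.9 ± 1.25% of the 3 Polycomb-like genes and MTF2 at 17.2 ± 1.25% (SD, n = 4). With DOX, PHF19 held 11.4 ± 0.233%, MTF2 28.2 ± 1.15% and PHF1 60.4 ± 1.14%.

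JARID2, which binds nucleosomes and, when methylated, activates the complex, lay at the threshold. JARID2 (ENSG00000008083.14, chr6:15246296-15522040, plus strand) stood at 36.2, 36.7, 31.2 and 36.2 CPM without DOX and at 32.8, 31.6, 31.2 and 32.5 CPM with DOX. Untreated replicate 3 lay apart from the other untreated libraries and within the range of the DOX libraries. The log2FC was -0.13 (SE 0.06) with an edgeR adjusted p of 0.0527, and without untreated replicate 3 it was -0.19 with an adjusted p of 0.00103. The divergent transcript JARID2-DT was below the filter, with 19 to 40 counts in untreated and 11 to 16 in DOX-treated libraries, and JARID2-AS1 had at most 3. The partner AEBP2 rose from 48.2 ± 2.996 to 59.7 ± 2.21 CPM (log2FC 0.31, SE 0.05, edgeR adjusted p = 0.000232). Relative to AEBP2, JARID2 was 1.35-fold lower with DOX, with a log2 ratio of -0.53, -0.35, -0.54 and -0.41 in untreated and of -0.87, -0.99, -0.89 and -0.84 in DOX-treated libraries (difference -0.44, SE 0.06, exact permutation p = 0.0286).

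**Figure D3:**
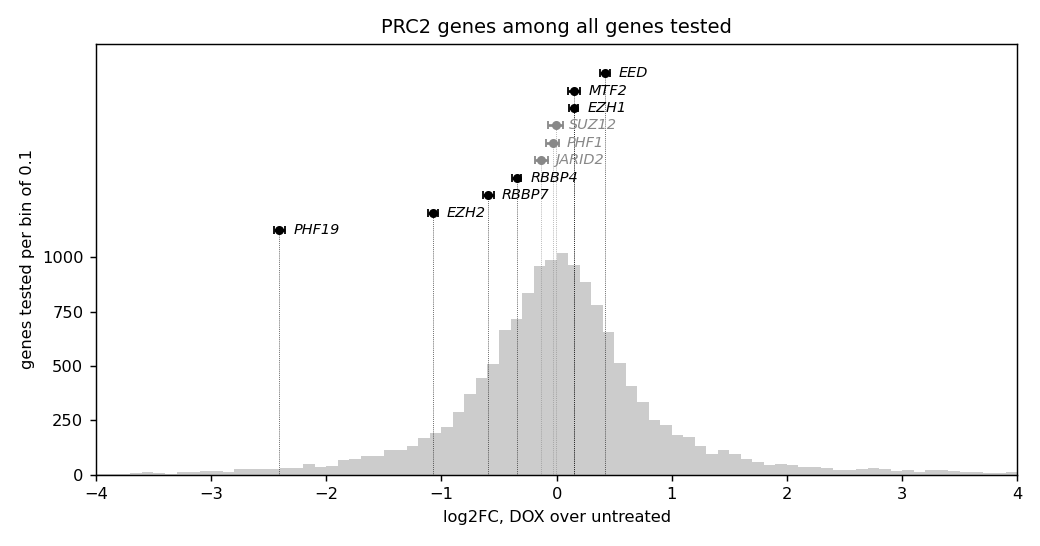
The log2FC of the 10 PRC2 genes above the distribution of all genes tested (grey bars, genes per bin of 0.1). Points are log2FC of DOX over untreated with bars of ± 1 SE, black for an adjusted p below 0.05 and grey otherwise, and 263 genes lie beyond ±4 and are not drawn. PHF19 at -2.41 lies in the lower tail, EZH2 at -1.07 at its edge, and the other 8 genes between -0.59 and 0.42.

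Set against the whole transcriptome, the log2FC of most PRC2 genes was moderate. The middle 50% of genes tested lay between -0.43 and 0.44, and 90% lay between -1.52 and 1.81, so PHF19 was the single PRC2 gene outside the wider range. Per kb of the principal transcript, the order of levels in untreated cells was RBBP7 (57.3 CPM per kb), RBBP4 (40.5), EZH2 (31.7), SUZ12 (28.4), EZH1 (22.2), PHF1 (20.5), PHF19 (19.9), EED (14.0), MTF2 (8.38) and JARID2 (6.10). The ranges of EZH1 and PHF1, and of PHF1 and PHF19, overlapped. With DOX, EZH2 (15.1 CPM per kb) came after SUZ12 (28.3), EZH1 (24.6), PHF1 and EED (18.7), and PHF19 (3.76) came last, after JARID2 (5.57). PHF1 and EED then had overlapping ranges. With merged exons as length the order differed, with RBBP4 first at 34.0 CPM per kb and EED last at 4.44 in untreated cells, but EZH2 again lay below SUZ12 and EZH1, and PHF19 was last, in DOX-treated cells.

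Of 5 further accessory subunits and inhibitors of PRC2, 4 passed the filter, of which AEBP2 and LCOR rose and LCORL fell (3 of 4 called, against 76.6% of all genes). LCOR, whose locus also encodes the PRC2 subunit PALI1, went from 139 ± 23.4 to 180 ± 16.4 CPM (SD, n = 4; log2FC 0.37, edgeR adjusted p = 0.0108). Untreated replicate 3 was again the lowest, with 104 CPM. LCORL, whose locus encodes PALI2, went from 65.4 ± 8.52 to 36.5 ± 3.31 CPM (log2FC -0.84, edgeR adjusted p = 6.93e-06). EPOP stood at 44.7 and 48.1 CPM with an adjusted p of 0.133, and EZHIP, a germline inhibitor of EZH2, had at most 1 count in any library.

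Of 28 genes of PRC1, the complex that places ubiquitin on histone H2A, all passed the filter, 11 rose, 10 fell and 7 did not pass the test, with a median log2FC of -0.05. The 21 of 28 called compare with 76.6% of all genes, 38.5% higher and 38.1% lower. AUTS2, a subunit of a PRC1 form described in neurons, had the largest change, from 368 ± 23.0 to 81.0 ± 3.57 CPM (log2FC -2.18, SE 0.06, edgeR adjusted p = 2.50e-11), and was the only PRC1 gene at the stricter threshold. CBX2, which binds the mark that PRC2 places, fell from 124 to 68.2 CPM (log2FC -0.86), and PCGF6 from 17.7 to 9.54 CPM (-0.89). Of the other genes with a PCGF name, which define PRC1 forms, PCGF3 rose from 54.6 to 88.0 CPM (0.69), PCGF5 from 11.7 to 18.1 CPM (0.63) and PCGF1 from 10.6 to 16.2 CPM (0.60). PCGF2 fell slightly, from 92.9 to 82.6 CPM (-0.17, edgeR adjusted p = 0.0254). In PR-DUB, which removes that ubiquitin, 5 of 11 genes rose and 3 fell (72.7% called, against 76.6% of all genes), among them KDM1B (log2FC 0.81), ASXL3 (0.73) and MBD5 (0.57) on the higher side and OGT (-0.79), FOXK1 (-0.44) and MBD6 (-0.26) on the lower.

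Of the enzymes that act on the residue methylated by PRC2, the demethylases rose. KDM6A went from 27.3 ± 2.41 to 42.9 ± 1.34 CPM (SD, n = 4; log2FC 0.65, SE 0.06, edgeR adjusted p = 1.85e-06) and KDM6B from 45.8 to 57.6 CPM (log2FC 0.33, adjusted p = 0.000244). The acetyltransferases EP300 and CREBBP, which modify the same residue, had log2FC of 0.02 and 0.15 and adjusted p of 0.861 and 0.0553. Of 15 genes of the MLL/COMPASS complexes, which methylate lysine 4 and often oppose Polycomb, 4 rose and 6 fell, so that 66.7% were called, below the 76.6% of all genes. KMT2C (log2FC 0.89), KMT2D (0.39) and KMT2B (0.33) were higher, and SETD1B (-0.79), WDR5 (-0.59) and PAXIP1 (-0.50) lower. Of 29 genes of other complexes that contain RBBP4 or RBBP7, 7 rose and 14 fell, and 72.4% were called, again near the 76.6% of all genes. CHAF1B (log2FC -2.03) and CHAF1A (-1.55), which deposit histones behind the replication fork, fell most, followed by SAP30 (-0.71), while GATAD2B (0.69), BPTF (0.69) and SIN3B (0.64) rose.

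**Figure D4:**
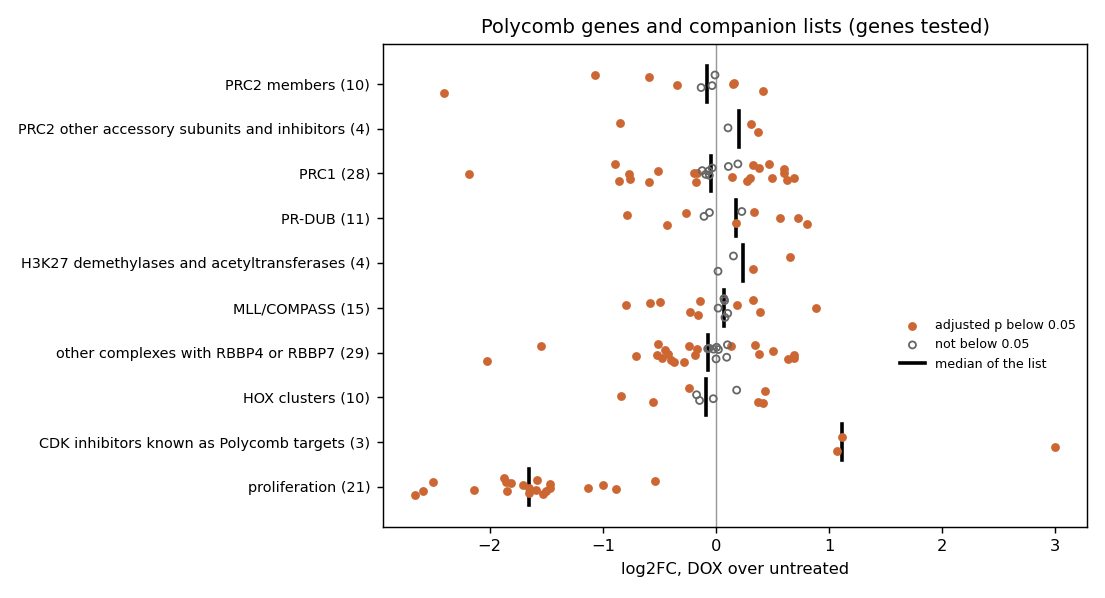
The log2FC of genes tested in the PRC2 set and in lists of related genes, with the number tested in parentheses. Each point is 1 gene, filled for an adjusted p below 0.05 and open otherwise, and the bar is the median of the list. The 21 proliferation genes all lie below 0 with a median of -1.65, whereas the PRC1 genes spread from -2.18 to 0.69.

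HOX genes and cyclin-dependent kinase inhibitors, among them classical targets of Polycomb, were followed as well, without a measurement of the histone mark. Of 39 HOX genes, 7 were at 0 in all libraries and 29 did not pass the filter. Of the 10 tested, 3 rose and 3 fell (60.0% called, against 76.6% of all genes): HOXC4 (log2FC -0.84) and HOXC9 (-0.55) had the largest falls, and HOXA10 (0.44) and HOXC6 (0.42) the largest rises among those without overlap. Below the filter, and named after their values were seen, HOXD8 stood at 0.0764 CPM in untreated and 0.978 CPM in DOX-treated cells and HOXD9 at 0.0692 and 0.513 CPM, with each DOX library above each untreated one. HOXD13, HOXD10, HOXD3 and HOXB9 had no counts in untreated libraries and at most 7 in any DOX library, with at least 1 in each. Other HOX genes below the filter, also named after their values were seen, did not rise. HOXC5 stood at 0.414 and 0.237 CPM, HOXC11 at 0.0723 and 0.0320 CPM, and HOXA2 at 0.0680 and 0.0673 CPM. The share of all genes below the filter with separate groups was not counted, so these rows show no direction for the HOX genes. Of 4 cyclin-dependent kinase inhibitors, the 3 tested all rose, against 38.5% of all genes called higher. CDKN2B, which lies beside CDKN2A in a locus known to be silenced by Polycomb, stood at 0.593 ± 0.107 CPM in untreated and 4.79 ± 0.235 CPM in DOX-treated cells (SD, n = 4; log2FC 2.9997, edgeR adjusted p = 1.32e-09). Its untreated level was below the 1 CPM of the filter, so it entered the test only through the DOX libraries, where it was high. Its call therefore adds no separate support for a rise, and the comparison with 38.5% rests on CDKN2A and CDKN1A alone. CDKN2A went from 7.59 to 15.9 CPM (log2FC 1.07) and CDKN1A from 103 to 221 CPM (1.11), while CDKN1C, at 0.180 and 0.241 CPM, was below the filter.

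Markers of proliferation moved with EZH2, PHF19, RBBP4 and RBBP7. All 21 genes of a proliferation list fell, against 38.1% of all genes called lower. Their median log2FC was -1.65, with a range from -2.66 to -0.54. Their summed level went from between 3764 and 4125 CPM in untreated libraries to between 1208 and 1330 CPM in DOX libraries. RRM2 (log2FC -2.66), AURKB (-2.59) and E2F2 (-2.50) had the largest falls, so that PHF19 (-2.41) lay within the range of this list, and EZH2 (-1.07), RBBP7 (-0.59) and, above its upper end, RBBP4 (-0.35) lay higher. The part of the lower proliferation signal in the falls of the PRC2 genes was not tested. Lineage markers moved too: all 5 medulloblastoma markers tested of 10 fell, again against 38.1% of all genes called lower. Their median log2FC was -2.23, and the summed level of the list went from 1326 to 1390 CPM to 591 to 603 CPM. Of the markers of other cell types, SLC1A3, an astrocyte gene, fell from 49.4 to 16.3 CPM while GFAP was below the filter. PDGFRB rose from 13.5 to 40.4 CPM, with COL1A1 at 22.1 and 23.4 CPM the other of 2 tested among 6 fibroblast markers. Summed endothelial markers were 3.07 to 4.06 CPM and 5.38 to 6.15 CPM, with CDH5 and KDR higher and VWF lower, and summed blood cell markers were 0.583 to 0.755 CPM and 1.97 to 2.67 CPM, with LYZ the only one tested. LYZ, CDH5 and KDR entered the test through the DOX libraries, where they were high, so their calls add no separate support for a rise. The part of these markers in the PRC2 values was not tested.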

How the data were processed

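PolyA+ RNA of D283-OMO cells was sequenced by the authors from a stranded kit, in 4 untreated and 4 DOX libraries described as independent biological replicates. The authors used Trim Galore for trimming and STAR for alignment to GRCh38 with GENCODE release 32, and deposited RSEM expected counts per gene, which are not normalized and in which reads that match several genes are divided. They were rounded before testing.

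The test covered genes above 1 CPM in 4 or more of the 8 libraries and was run with edgeR 4.0.16 in R 4.3.3 (TMM, quasi-likelihood test, Benjamini-Hochberg adjustment over 15222 genes). The standard error of a log2FC was derived from the F statistic. Ratios within libraries used counts plus 0.5 and exact permutation over 70 splits. A count of 3 corresponds to 0.0581 to 0.0748 CPM, which reflects counting error alone, as reads lacking molecular identifiers need not be separate molecules. Lengths come from GENCODE 29 on GRCh38, the principal transcript or the merged exons. Alternatives were DESeq2 1.42.0 and its size factors, library size only, edgeR's likelihood ratio test, other filters, a replicate block and each replicate left out.

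Named were all 10 PRC2 genes, their pseudogenes and antisense or divergent rows, every gene of lists of 5 or fewer, in longer lists the 3 genes in each direction with the largest absolute log2FC among those called without overlap, MYC, CAD and NCL, and the 3 nearest patterns of the member with the largest rise and of that with the largest fall. Some genes this rule names and the oligodendrocyte list are not reported here. COL1A1 and PCGF2 were named after their values were seen, and the genes and lists were chosen with earlier results of these data known.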

Additional observations from a re-analysis of the deposited data

Results flagged for a closer look

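Of 30 groups of 4 libraries examined with Dixon's criterion at 95%, 2 held a library apart from the rest, and chance gives about 1 in 20. JARID2 in untreated cells stood at 31.2 CPM in replicate 3, against 36.2 to 36.7 CPM in the others, and without that library its adjusted p went from 0.0527 to 0.00103. This library was not apart for JARID2 alone. It was also the lowest untreated library for SUZ12, RBBP4, MTF2, EZH1 and EZH2, and the highest for EED, RBBP7, PHF1 and PHF19. Leaving it out gave 12040 genes called, the most with any replicate left out, against 11661 with all libraries. The log2 ratio of EZH2 to EZH1 in untreated cells was 0.11 in replicate 2, against 0.07 in the others, while the DOX libraries lay between -1.19 and -1.10.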

How the results depend on the processing

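The 7 PRC2 genes called kept their direction in all 16 alternatives, and calls among the 10 numbered 6 to 8, or 7 to 8 with a replicate left out. EZH1 (log2FC 0.12, adjusted p 0.0652) and MTF2 (0.13, 0.0828) lost the call without a filter on low counts. JARID2 was called without that filter (adjusted p 0.0339), with DESeq2 size factors (0.0475), in the DESeq2 Wald test (0.0485), with the replicate block (0.0438) and without untreated replicate 3 (0.00103). SUZ12 and PHF1, called in none, changed sign with library size only (0.12 and 0.0926). SUZ12 also changed sign with a filter of 1 CPM exceeded in over 4 libraries (0.00361), with TMM on genes of at least 10 CPM (0.0105, chosen after seeing the data), and without untreated replicate 1 (0.0134), untreated replicate 2 (0.00235) or DOX replicate 4 (0.026), within a range of -0.0687 to 0.026 over replicates left out. PHF1 did so without untreated replicate 3 (0.00404), within -0.0627 to 0.00404. The causes were not tested. Library size only moved the median of all genes from 0.01 to 0.14, EZH1 to 0.28, MTF2 to 0.28, RBBP4 to -0.22 and JARID2 to -0.0056, with the calls as before. Genes called across the transcriptome numbered 11661, and 11159 to 12040 with a replicate left out. At the stricter threshold 1084 were called, 2097 without a filter and 562 with the filter over more libraries. The last filter drops genes above 1 CPM in exactly 4 libraries, and it left 14301 genes tested, against 15222. The share of all genes at the stricter threshold therefore depends on the filter. Calls in the companion lists numbered 105 to 117 with a replicate left out. With a replicate left out the log2 ratios ranged from -1.23 to -1.20 (EZH2 to EZH1), -0.27 to -0.21 (RBBP7 to RBBP4), -2.60 to -2.51 (PHF19 to MTF2), -2.39 to -2.35 (PHF19 to PHF1) and -0.47 to -0.40 (JARID2 to AEBP2). The labels do not say that a replicate number marks a shared batch. Deviations of same-numbered libraries correlated at 0.20, 0.18, 0.31 and -0.24, against a mean of -0.04 for other pairs. The pair numbered 4 lay below that mean and the others above it, so these values do not decide whether a batch was shared. The main tests treated the libraries as unpaired. In the replicate block the ratios were unchanged at -1.22, -0.25, -2.56, -2.37 and -0.44, but the exact sign-flip p was 0.125, the smallest that 4 pairs allow. With merged exons as length the shares were 62.0% and 41.2% for EZH2, 34.7% and 30.9% for RBBP7, and 39.6% and 10.9% for PHF19, in untreated and DOX-treated cells. At this depth the members had at least 623 counts, so the spread between libraries limits their precision.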
